A study of Mus musculus with 8 samples.

Results

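Liver RNA was read for 9 genes that set how fast triglyceride leaves the blood: Angptl8, Angptl4 and Apoc3, whose proteins slow lipoprotein lipase, Apoc2 and Apoa5, whose proteins favour it, the lipase genes Lpl and Lipc, and Gpihbp1 and Lmf1, which serve the lipase on the vessel wall and in the secretory pathway. The genes were picked by name for their roles, with earlier results of these data known, and all 9 were found by Ensembl identifier and symbol among the 25690 genes of the deposited table. The samples were livers of mice with a hepatic FOXO1 knockout (4 libraries, numbered 3, 9, 10 and 11 in their titles) and of wildtype controls (4 libraries, numbered 1, 3, 10 and 12). Strain, age, sex, diet, feeding state and the driver of the knockout are not stated by the labels. Nor do they say whether each library is 1 animal, so the spread between libraries may be partly technical.

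Triglyceride travels in the blood inside very-low-density lipoproteins from the liver and chylomicrons from the gut. Lipoprotein lipase, held on capillary walls, breaks it down, and the remnants are taken up by the liver. The liver sends out most of the proteins that tune this lipase, and FoxO1, a forkhead factor that leaves the nucleus when insulin acts, is known as an activator of Apoc3.

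Lower in the knockout livers were 3 members of different roles: Angptl8 and Apoc3, which encode secreted inhibitors of lipoprotein lipase, and Lipc, which encodes hepatic lipase. Members called lower numbered 3 of 9 and members called higher 0 of 9, where 11.7% of the 10250 genes tested were called lower and 2.7% higher (limma, Benjamini-Hochberg adjusted p under 0.05). The median log2 change was -0.24 over the 9 members and -0.08 over all genes tested. The members' median changed sign with processing. It was 0.04 with a trend along transcript length removed (all genes -0.06) and 0.08 with quantile normalization (all genes -0.01). Without knockouts 3 and 11 it was -0.30 (all genes -0.01). The values of Angptl8, Apoc3 and Lipc did not overlap between the groups, which held for 21.3% of all genes tested in either direction. All 9 members reached the mean of 1 FPKM, fragments adjusted for the length of the transcript and for library size, that a gene needed for testing.

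**Figure D1:**
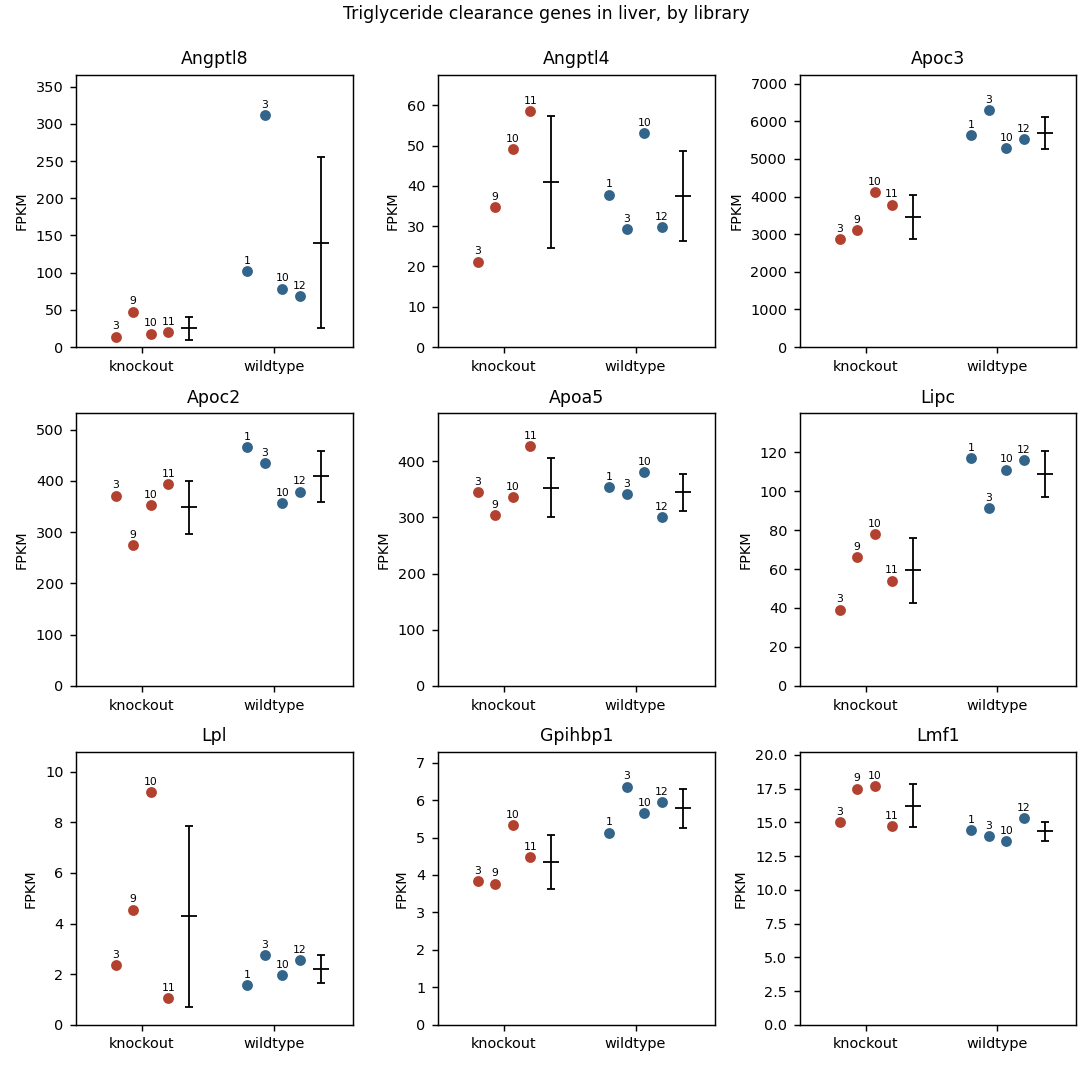
FPKM of the 9 genes in each library, knockout left and wildtype right, with library numbers above the points and the mean ± SD (n = 4 each) beside them, on axes from 0. Knockout and wildtype points separate for Angptl8, Apoc3 and Lipc, and Lpl spans 1.04 to 9.19 FPKM in knockout livers.

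The promoters of 5 members were matched in RefSeq on build GRCm38.p6, the assembly that mm10 names: Angptl8, Lipc, Apoc2, Apoa5 and Lmf1. The other members are Angptl4, Apoc3, Lpl and Gpihbp1. The windows printed here set the starts of a pair of genes that fell, Angptl8 and Lipc, beside those of a pair that did not pass, Apoc2 and Apoa5. Each runs 5′ to 3′ on the gene's own strand, from 250 bases before the annotated start to 50 bases after it, with the bases after the start in capitals.
Angptl8, chr9:21835260-21835559, plus strand: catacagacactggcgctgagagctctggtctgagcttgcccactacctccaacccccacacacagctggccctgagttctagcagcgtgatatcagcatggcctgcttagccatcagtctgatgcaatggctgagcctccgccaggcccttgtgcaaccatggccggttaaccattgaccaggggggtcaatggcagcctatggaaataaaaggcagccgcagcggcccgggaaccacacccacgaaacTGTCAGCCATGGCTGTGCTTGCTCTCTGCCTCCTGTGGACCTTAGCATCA
Lipc, chr9:70952172-70952471, minus strand: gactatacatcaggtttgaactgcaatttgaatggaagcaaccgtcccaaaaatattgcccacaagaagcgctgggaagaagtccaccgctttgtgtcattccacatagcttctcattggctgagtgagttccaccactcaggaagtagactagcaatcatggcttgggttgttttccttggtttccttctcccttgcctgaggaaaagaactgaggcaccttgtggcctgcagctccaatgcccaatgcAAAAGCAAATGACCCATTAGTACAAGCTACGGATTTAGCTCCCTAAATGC
Apoc2, chr7:19677892-19678191, minus strand: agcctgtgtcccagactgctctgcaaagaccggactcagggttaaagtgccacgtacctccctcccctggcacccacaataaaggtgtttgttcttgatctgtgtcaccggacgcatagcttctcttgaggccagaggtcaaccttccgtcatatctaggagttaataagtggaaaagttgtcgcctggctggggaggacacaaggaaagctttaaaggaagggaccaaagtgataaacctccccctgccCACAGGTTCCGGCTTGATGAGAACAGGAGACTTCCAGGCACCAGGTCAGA
Apoa5, chr9:46268358-46268657, plus strand: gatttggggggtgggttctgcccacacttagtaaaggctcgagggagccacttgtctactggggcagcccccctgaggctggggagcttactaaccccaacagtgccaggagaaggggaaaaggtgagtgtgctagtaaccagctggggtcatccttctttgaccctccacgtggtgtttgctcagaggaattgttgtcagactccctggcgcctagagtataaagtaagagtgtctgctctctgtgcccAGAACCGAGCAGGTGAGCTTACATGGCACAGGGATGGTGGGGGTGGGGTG

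Letter strings of forkhead sites, GTAAACA and CAAAACA, were searched on both strands. The end of the first can run into the start of the second, and each was counted by itself. They are found in 3.65% and 6.28% of the 32851 promoter windows of the same table. The 7 windows of the 5 matched members, which include a second start each for Apoa5 and Lipc, held 0 matches to either. That describes these letters in these windows alone.

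Foxo1 itself, the targeted gene, stood at 0.212 to 0.375 FPKM in the knockout libraries and at 3.01 to 3.81 FPKM in the wildtype ones, so each library went with its label (log2 change -1.78, limma adjusted p = 3.62e-05). Depth was estimated at 26.9 to 35.1 M fragments per library, M standing for mega. Knockouts 3 and 11 stood apart by acute phase genes, blood proteins made in inflammation: 8 of them summed to 73810 and 79538 FPKM there, to 5941 and 5311 FPKM in knockouts 9 and 10 and to 3506 to 4085 FPKM in wildtype livers. The neutrophil genes S100a8 and S100a9 were also highest in knockouts 3 and 11, S100a8 at 31.4 and 77.2 FPKM, against 0.825 to 3.19 FPKM in wildtype livers, and S100a9 at 24.3 and 57.5 FPKM, against 0.192 to 2.16 FPKM. The lymphocyte markers Cd3e, Cd4 and Cd8a did not set these libraries apart in this way, with Cd4 at 1.69 and 0.943 FPKM there and at 1.24 and 1.71 FPKM in knockouts 9 and 10. Fold changes also ran with transcript length: at the length of Apoc3 the trend was -0.31 on the log2 scale, so changes are also given with that trend removed. Over all genes tested, 277 rose and 1195 fell in knockout livers, and with median-ratio scaling, quantile normalization or the length trend removed the split was 506 and 717, 470 and 652, or 303 and 661. Of the 7 hepatocyte markers, 6 were analysed and all 6 were tested, 1 of them, Hnf4a, higher and 0 lower. Alb, another of them, was listed at 0 in knockout 10.

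Angptl8 (ENSMUSG00000047822, chromosome 9, 21835510 to 21837347, mm10, plus strand, 4 exons) encodes a liver and fat hormone that rises after feeding and restrains lipoprotein lipase in muscle. Its level was 14.1, 47.7, 18.0 and 20.4 FPKM in knockout libraries 3, 9, 10 and 11, and 102, 312, 78.4 and 68.9 FPKM in wildtype libraries 1, 3, 10 and 12. The highest knockout library, 9, lay below the lowest wildtype library, 12, and wildtype 3 stood far above the rest. The group means were 25.0 ± 15.3 and 140 ± 115 FPKM in knockout and wildtype livers (SD, n = 4 each), a 5.60-fold lower mean in knockout. The log2 change was -2.31 (SE 0.49, 95% interval -3.42 to -1.20, limma adjusted p = 0.0156), the largest in size among the 9 members. Without wildtype 3 the wildtype mean was 83.2 ± 17.2 FPKM (n = 3), the knockout mean 3.32-fold lower and the log2 change -1.83 (limma adjusted p = 0.0222). Leaving out knockouts 3 and 11 together, with 2 knockouts against 4 wildtypes left, gave a log2 change of -1.93. Angptl8 then did not pass (limma adjusted p = 0.105).

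Angptl8 lies inside Dock6, a gene of the opposite strand, and shares 0 exonic bases with it. Dock6 was at 1.17 to 1.72 FPKM in knockout livers and 1.15 to 1.80 FPKM in wildtype livers (log2 change -0.08, limma adjusted p = 0.671). The host gene was below Angptl8 in every library, and the part of its reads in the Angptl8 values was not tested. Reads behind the Angptl8 values were estimated at 404 to 7249 fragments per library.

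Angptl4 (ENSMUSG00000002289, chromosome 17, 33773750 to 33781830, minus strand) encodes the fasting-linked inhibitor of lipoprotein lipase in fat. It was at 21.2, 34.7, 49.2 and 58.5 FPKM across knockout libraries 3, 9, 10 and 11, against 37.8, 29.3, 53.1 and 29.7 FPKM in wildtype libraries 1, 3, 10 and 12. The lowest and the highest value were both in knockout libraries. The log2 change was 0.07 (SE 0.30, 95% interval -0.61 to 0.75, limma adjusted p = 0.902). Ratios between members within a library do not move with the scaling of that library. The ratio of Angptl8 to Angptl4 was 0.688 ± 0.481 in knockout livers and 4.29 ± 4.27 in wildtype livers, with no overlap (difference of log2 ratios -2.43, two-sided exact permutation test, p = 0.0286, and 0.0286 adjusted over the 4 ratios tested). This is the smallest p that 4 libraries against 4 allow.

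Apoc3 (ENSMUSG00000032081, chromosome 9, 46232933 to 46235636, minus strand) encodes apolipoprotein C-III, a small protein on lipoproteins that inhibits lipoprotein lipase and slows remnant uptake. It was at 2862, 3103, 4117 and 3784 FPKM across knockout libraries 3, 9, 10 and 11, against 5625, 6297, 5285 and 5537 FPKM in wildtype libraries 1, 3, 10 and 12. Every knockout library lay below every wildtype library. The means were 3467 ± 584 FPKM in knockout livers and 5686 ± 432 FPKM in wildtype livers (SD, n = 4 each), a 1.64-fold lower mean in knockout, and the log2 change was -0.73 (SE 0.14, 95% interval -1.05 to -0.41, limma adjusted p = 0.0115). Its longest coding transcript has 709 bases, where the trend along length runs low. Removing that trend left a log2 change of -0.42, and Apoc3 then did not pass (limma adjusted p = 0.0571), while it passed when length was taken from the longest transcript of any type (-0.44, limma adjusted p = 0.0464).

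Apoc2 (ENSMUSG00000002992, chromosome 7, 19671579 to 19677941, minus strand) encodes the cofactor that lipoprotein lipase needs, and its coding transcript, at 727 bases, is about as long as that of Apoc3. It was at 371, 275, 353 and 394 FPKM across knockout libraries 3, 9, 10 and 11, against 465, 434, 356 and 379 FPKM in wildtype libraries 1, 3, 10 and 12. The groups overlapped, and the log2 change was -0.24 (SE 0.14, 95% interval -0.54 to 0.07, limma adjusted p = 0.288). With the length trend removed it was 0.07 (limma adjusted p = 0.723). Apoc2 shares 646 exonic bases with Gm44805, a readthrough gene of the same strand that is not used here, so fragments of such transcripts cannot be told apart from its own.

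The ratio of Apoc3 to Apoc2, inhibitor to cofactor, was 7.72, 11.3, 11.7 and 9.61 in knockout libraries 3, 9, 10 and 11, and 12.1, 14.5, 14.9 and 14.6 in wildtype libraries 1, 3, 10 and 12. All knockout ratios lay below all wildtype ratios, although knockout 10 and wildtype 1 were close. The difference of log2 ratios was -0.49 (two-sided exact permutation p = 0.0286, adjusted 0.0286). Without knockouts 3 and 11, which held the lowest ratios, the difference was -0.28 (two-sided exact permutation p = 0.0667, adjusted 0.133). The length trend was -0.31 for Apoc3 and -0.3 for Apoc2 on the log2 scale. The part of transcript length or of the readthrough gene in this ratio was not tested.

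Apoa5 (ENSMUSG00000032079, chromosome 9, 46268633 to 46271919, plus strand) encodes apolipoprotein A-V, a scarce plasma protein that speeds triglyceride clearance. It was at 345, 304, 336 and 427 FPKM across knockout libraries 3, 9, 10 and 11, against 354, 342, 381 and 301 FPKM in wildtype libraries 1, 3, 10 and 12. The groups lay over each other, with a log2 change of 0.03 (SE 0.13, 95% interval -0.25 to 0.31, limma adjusted p = 0.902). Apoa5 shares 524 exonic bases with the antisense gene Gm47544, and without strand information their reads cannot be told apart. The ratio of Apoc3 to Apoa5 was 9.90 ± 1.75 in knockout livers and 16.6 ± 2.19 in wildtype livers, with no overlap (difference of log2 ratios -0.76, two-sided exact permutation p = 0.0286, adjusted 0.0286).

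**Figure D2:**
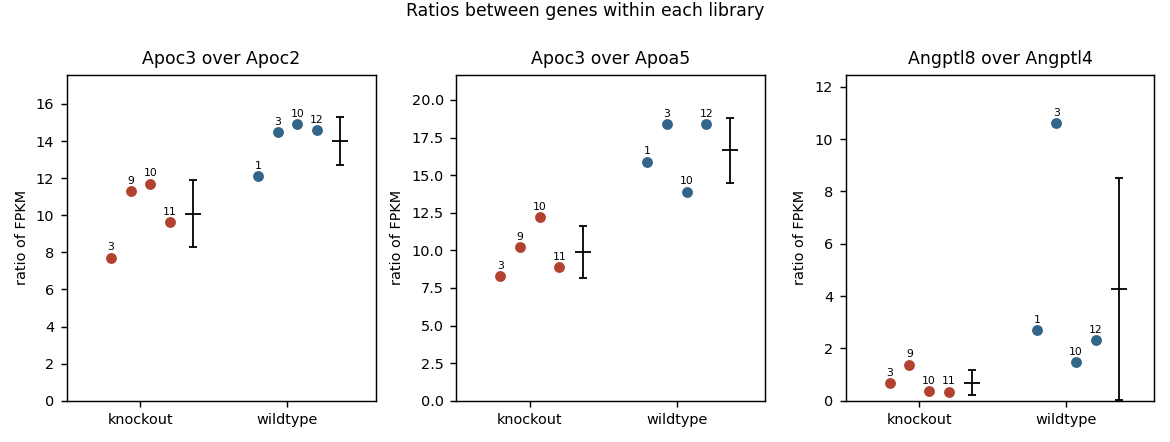
Ratios of FPKM between a pair of genes within each library, knockout left and wildtype right, with library numbers above the points and the mean ± SD (n = 4 each) beside them. In all 3 panels the knockout points lie below the wildtype points, with 11.7 (knockout 10) next to 12.1 (wildtype 1) for Apoc3 over Apoc2 and 1.38 (knockout 9) next to 1.48 (wildtype 10) for Angptl8 over Angptl4.

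Apoc3 and Apoa5 stand 32996 bases apart in a cluster with Apoa1 and Apoa4, the genes of the main HDL protein and of a gut and liver apolipoprotein. Apoa1, 2466 bases from Apoc3, was at 9183 ± 1486 and 9363 ± 1044 FPKM in knockout and wildtype livers (log2 change -0.04, limma adjusted p = 0.901). Apoa4, 5059 bases from Apoc3 on its other side, was at 156 ± 107 and 115 ± 39.9 FPKM (log2 change 0.28, limma adjusted p = 0.693). Apoc3 was the only gene of these 4 that passed. The flanking genes Zpr1 (-0.26, limma adjusted p = 0.333) and Sik3 (-0.06, limma adjusted p = 0.785) did not pass either.

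Apoc2 lies in the other cluster, beside Apoc4, Apoc1 and Apoe. Here 2 neighbours fell and the member did not pass: Apoc1, whose protein also hinders lipoprotein uptake, was at 10219 ± 2206 and 19152 ± 2706 FPKM in knockout and wildtype livers (log2 change -0.92, limma adjusted p = 0.0124), and Apoc4 at 1622 ± 126 and 2445 ± 221 FPKM (-0.59, limma adjusted p = 0.0103). Both have short coding transcripts, of 532 and 538 bases, and with the length trend removed neither passed (limma adjusted p = 0.0636 for Apoc1 and 0.201 for Apoc4). Apoe, the ligand of remnant receptors, was at 12328 ± 2444 and 17995 ± 1818 FPKM (-0.56, limma adjusted p = 0.0558). The flanking genes Clptm1 (0.26, limma adjusted p = 0.0965) and Tomm40 (0.03, limma adjusted p = 0.870) did not pass.

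**Figure D3:**
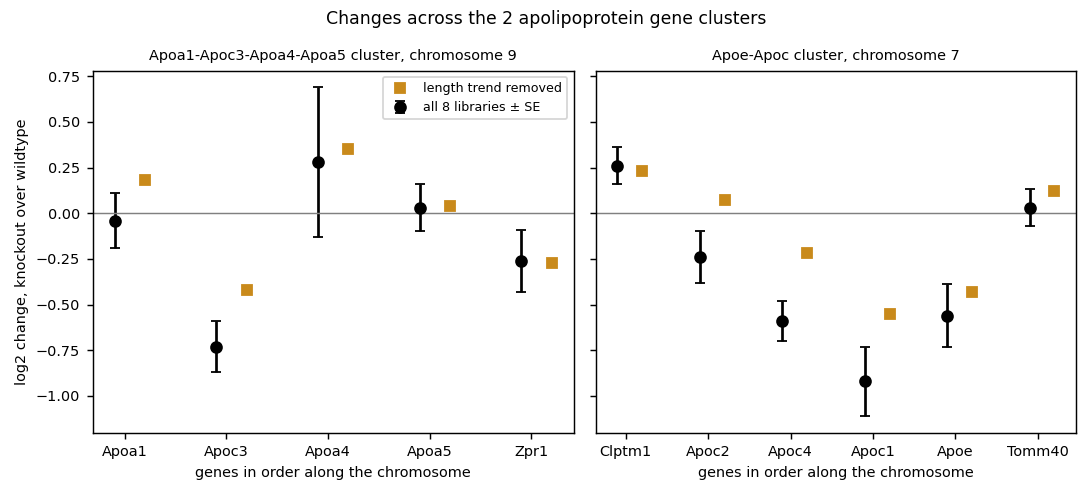
Log2 change (knockout over wildtype) of genes in their order along the chromosome in both apolipoprotein clusters. Circles with bars are the fit to 8 libraries ± SE, and squares are the same with the length trend removed. On the left Apoc3 lies lowest, at -0.73, with Zpr1 next at -0.26, while on the right Apoc4, Apoc1 and Apoe lie below Apoc2.

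Lipc (ENSMUSG00000032207, chromosome 9, 70798128 to 70952226, minus strand, 9 exons) encodes hepatic lipase, which acts on remnants and HDL in the liver's sinusoids. It was at 39.2, 66.0, 77.9 and 54.1 FPKM across knockout libraries 3, 9, 10 and 11, against 117, 91.2, 111 and 116 FPKM in wildtype libraries 1, 3, 10 and 12. Every knockout library lay below the lowest wildtype library, 3. The means were 59.3 ± 16.6 FPKM in knockout livers and 109 ± 12.1 FPKM in wildtype livers, 1.84-fold lower in knockout, with a log2 change of -0.90 (SE 0.19, 95% interval -1.34 to -0.47, limma adjusted p = 0.0156). With the length trend removed the change was -0.85 (limma adjusted p = 0.0295). Without knockouts 3 and 11 it was -0.59 (limma adjusted p = 0.0412), and without wildtype 1 Lipc just missed the threshold (-0.87, limma adjusted p = 0.0505). The neighbouring gene Adam10, a membrane protease gene, did not pass (0.12, limma adjusted p = 0.432).

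Lpl (ENSMUSG00000015568, chromosome 8, 68880491 to 68907448, plus strand) encodes lipoprotein lipase, which adult mouse liver makes in small amounts. It was at 2.37, 4.55, 9.19 and 1.04 FPKM across knockout libraries 3, 9, 10 and 11, against 1.57, 2.76, 1.95 and 2.54 FPKM in wildtype libraries 1, 3, 10 and 12. Knockouts 9 and 10 lay above all wildtype libraries, knockout 11 below all of them and knockout 3 among them. Over 8 libraries the log2 change was 0.49 (SE 0.41, 95% interval -0.45 to 1.42, limma adjusted p = 0.477). The knockout mean, 4.29 ± 3.58 FPKM, was 2.65 ± 1.77 FPKM without knockout 10, against 2.20 ± 0.546 FPKM in wildtype livers. Knockouts 3 and 11, the libraries high in acute phase genes, also held the lowest Lpl values among the knockouts. Without them 2 knockouts remained, at 4.55 and 9.19 FPKM, and Lpl was called higher (1.25, limma adjusted p = 0.0324).

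The part of the acute phase genes in this spread was not tested. In that comparison members called lower were Apoc3 and Lipc, 2 of 9, and members called higher 1 of 9, where 6.35% of 10277 genes were lower and 1.88% higher. With the length trend removed members called lower were Angptl8 and Lipc, 2 of 9, and members called higher 0, where 6.51% of 10149 genes were lower and 2.99% higher.

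Fat cells are rich in Lpl, and their markers were nearly missing from these libraries. All 5 adipocyte markers averaged under 1 FPKM, Lep and Retn were listed at 0 throughout, and their sum reached 0.184 FPKM at most in knockout livers and 0.193 FPKM in wildtype livers. Macrophages also make Lpl. The 6 Kupffer cell markers summed to 41.9 to 69.8 FPKM in knockout livers, with the highest value in knockout 10 and the lowest in knockout 3, and to 52.8 to 71.7 FPKM in wildtype livers. In 5 of them tested, 0 were called by limma and 0 had an unadjusted p under 0.05, where 3126 of all 10250 genes did. Lpl itself was highest in knockout 10 and lowest in knockout 11. In such bulk RNA fewer cells of a type and less RNA per cell cannot be told apart. The part of fat cells or macrophages in the Lpl values was not tested.

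Gpihbp1 (ENSMUSG00000022579, chromosome 15, 75596628 to 75599481, plus strand) encodes the protein of capillary endothelium that holds lipoprotein lipase on the vessel wall. It was at 3.83, 3.77, 5.33 and 4.48 FPKM across knockout libraries 3, 9, 10 and 11, against 5.13, 6.36, 5.66 and 5.95 FPKM in wildtype libraries 1, 3, 10 and 12. Knockout 10 alone reached into the wildtype range. The log2 change was -0.35 (SE 0.11, 95% interval -0.60 to -0.09, limma adjusted p = 0.0733), which did not pass, although it did without knockout 10 (-0.43, limma adjusted p = 0.0333). Beside this, 6 sinusoidal endothelial markers summed to 34.3 to 57.7 FPKM in knockout livers, highest in knockout 10, and to 59.2 to 77.0 FPKM in wildtype livers, and 2 of the 5 tested, Stab1 and Fcgr2b, were called lower, where 11.7% of all genes were. Without knockouts 3 and 11, which leaves 2 knockouts, neither passed. The log2 change of Stab1 was -1.02 over 8 libraries and -0.96 without them (limma adjusted p = 0.078). That of Fcgr2b was -0.59 and -0.47 (limma adjusted p = 0.0756). Stab1 weighed most in the sinusoidal sum, at means of 16.7 and 34.2 FPKM in knockout and wildtype livers. Clec4g, Kdr and Stab2 did not pass over 8 libraries (limma adjusted p = 0.0984, 0.0973 and 0.403). Lyve1, too low to be tested, had the higher mean in knockout livers (0.594 against 0.428 FPKM), with overlap. The 5 vascular endothelial markers summed to 3.07 to 5.91 FPKM and 4.16 to 5.04 FPKM. Of 3 tested 0 were called by limma and 0 had an unadjusted p under 0.05, where 3126 of all 10250 genes did. The part of both sets of endothelial markers in the Gpihbp1 values was not tested.

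**Figure D4:**
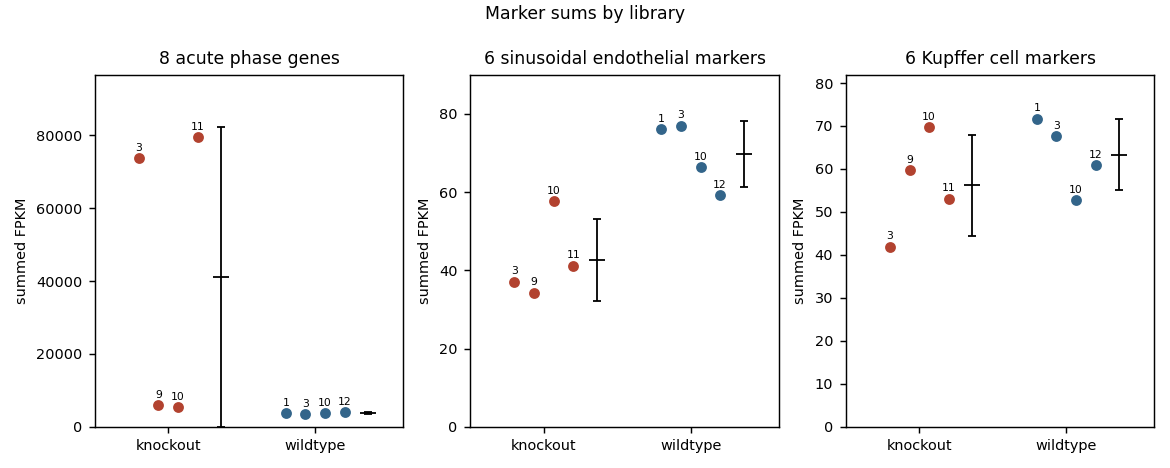
Summed FPKM of marker genes in each library, knockout left and wildtype right, with library numbers above the points and the mean ± SD (n = 4 each) beside them. Knockouts 3 and 11 stand at 73810 and 79538 FPKM for acute phase genes, and knockout 10, at 57.7 FPKM, is the knockout nearest to wildtype for sinusoidal endothelial markers.

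Lmf1 (ENSMUSG00000002279, chromosome 17, 25579085 to 25662826, plus strand) encodes a membrane protein of the endoplasmic reticulum in which lipoprotein lipase and hepatic lipase fold. It was at 15.0, 17.5, 17.7 and 14.7 FPKM across knockout libraries 3, 9, 10 and 11, against 14.4, 14.0, 13.6 and 15.3 FPKM in wildtype libraries 1, 3, 10 and 12. Knockouts 9 and 10 lay above the wildtype range and knockouts 3 and 11 inside it. The log2 change was 0.17 (SE 0.09, 95% interval -0.04 to 0.38, limma adjusted p = 0.263). It was called higher with median-ratio scaling (0.27, limma adjusted p = 0.0388), which moves the median of all genes from -0.08 to 0.01.

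**Figure D5:**
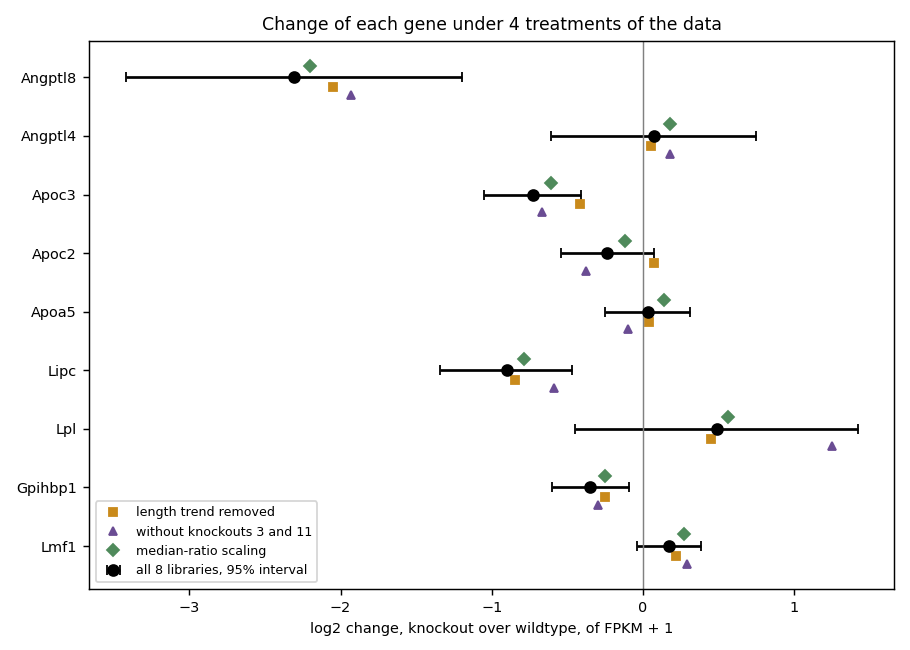
Log2 change of each gene (knockout over wildtype, of FPKM + 1). Circles with bars are the fit to 8 libraries with its 95% interval, squares have the length trend removed, triangles leave out knockouts 3 and 11, and diamonds use median-ratio scaling. Angptl8, Apoc3 and Lipc lie below 0 in all 4, and the Lpl triangle, at 1.25, lies far to the right of its circle at 0.49.

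The members differed widely in level, on the FPKM scale, which allows for transcript length. In knockout livers the order of means was Apoc3, Apoa5, Apoc2, Lipc, Angptl4, Angptl8, Lmf1, Gpihbp1 and Lpl. In wildtype livers it was Apoc3, Apoc2, Apoa5, Angptl8, Lipc, Angptl4, Lmf1, Gpihbp1 and Lpl. By mean, Angptl8 stood below Lipc and Angptl4 in knockout livers and above both in wildtype livers. Its place above Lipc rested on wildtype 3, without which the wildtype means were 83.2 FPKM for Angptl8 and 115 FPKM for Lipc. Neighbours whose ranges overlapped in knockout livers were Apoa5 with Apoc2, the run from Lipc through Angptl4 and Angptl8 to Lmf1, and Gpihbp1 with Lpl. In wildtype livers they were Apoc2 with Apoa5, Apoa5 with Angptl8, and Angptl8 with Lipc. Apoa5 and Angptl8 met through wildtype 3, the library with the most Angptl8. The coefficient of variation was highest for Lpl in knockout livers, at 83.5%, and for Angptl8 in wildtype livers, at 82.0%, and lowest for Lmf1 in both, at 10.1% and 5.21%.

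The genes whose profiles over the 8 libraries came nearest to that of Angptl8 were Dusp1, a dual-specificity phosphatase gene, Ppp1r3c, a glycogen-targeting phosphatase subunit gene, and Abcb11, the bile salt export pump gene. Likeness was the root mean square difference of log2(FPKM + 1) after centring each gene, here 0.449, 0.625 and 0.754, over 10249 other genes. Dusp1 was at 1.68, 5.06, 3.68 and 2.66 FPKM across knockout libraries 3, 9, 10 and 11, against 15.7, 26.4, 7.13 and 7.97 FPKM in wildtype libraries 1, 3, 10 and 12. It was picked for its likeness to Angptl8 over these same libraries, so its peaks in wildtype 3 and knockout 9 follow from the choice. The genes nearest to Apoc3 were Ndufa6, Cox7a2 and Rplp2, 2 respiratory chain genes and a ribosomal protein gene, at differences of 0.057, 0.080 and 0.083. Their coding transcripts have 590, 659 and 964 bases, and with the length trend removed their log2 changes were -0.40, -0.45 and -0.44, beside -0.42 for Apoc3. They were picked for likeness to Apoc3 in these data, so the closeness of these changes is not a separate result.

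Other genes of the pathway were read against the same shares of all genes tested, 11.7% lower and 2.7% higher. Of 11 tested genes for other angiopoietin-like proteins, lipases and lipase maturation, 1 rose and 0 fell, with a median log2 change of 0.02. The riser was Lmf2, the relative of Lmf1, at 4.78 ± 0.351 FPKM in knockout livers and 3.31 ± 0.185 FPKM in wildtype livers (log2 change 0.42, limma adjusted p = 0.0122). Of 12 tested genes of remnant uptake 2 rose and 0 fell, with a median of 0.16. These were the receptor genes Lsr, at 84.9 ± 22.6 and 52.0 ± 6.04 FPKM in knockout and wildtype livers (0.67, limma adjusted p = 0.0363), and Lrp1, at 34.0 ± 7.21 and 23.5 ± 2.59 FPKM (0.50, limma adjusted p = 0.0480). Without knockouts 3 and 11, which leaves 2 knockouts, neither Lsr nor Lrp1 passed (0.37 and 0.33, limma adjusted p = 0.130 and 0.138). Lrp1 also did not pass once the length trend was removed (0.42, limma adjusted p = 0.123).

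Of 12 other genes for apolipoproteins and particle assembly 3 fell and 0 rose, with a median of -0.05: Apoc4 and Apoc1, given above, and Apoa2, a gene of an HDL protein, at 13329 ± 3977 and 28196 ± 3233 FPKM in knockout and wildtype livers (-1.12, limma adjusted p = 0.0112). With the length trend removed Apoa2 alone fell of these, and 2 genes of the list, Apof and Apon, rose. Of 19 genes for transcription regulators linked to the members 1 rose and 0 fell, with a median of 0.02. It was Hnf4a, a hepatocyte nuclear receptor gene, at 87.8 ± 12.2 and 64.8 ± 6.39 FPKM (0.43, limma adjusted p = 0.0494). Hnf4a missed the threshold after removal of the length trend (0.39, limma adjusted p = 0.0806) or without knockouts 3 and 11 (0.31, limma adjusted p = 0.228).

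Angptl8 rises with feeding and Angptl4 with fasting, and other genes of both states were read beside them. Of 11 tested feeding genes, those of fatty acid synthesis and sugar use, limma called 0, and 1 had an unadjusted p under 0.05. Of 9 tested fasting genes limma called 0, and 2 had an unadjusted p under 0.05. Among all 10250 genes tested, 3126 had an unadjusted p under 0.05. Both lists had a median log2 change of -0.17. The fasting genes ran from -1.92 for Igfbp1 (limma adjusted p = 0.0883) and -1.55 for G6pc (limma adjusted p = 0.171) to 1.0 for Cyp4a14 (limma adjusted p = 0.411). Whether genes of these lists depend on Foxo1 itself was not tested. Relative to the wildtype mean, the median feeding gene stood at -0.56 and -0.08 on the log2 scale in wildtypes 1 and 3 and at 0.33 and 0.42 in wildtypes 10 and 12. Angptl8 was at 102, 312, 78.4 and 68.9 FPKM in these libraries in the same order, and the part of feeding state in its values was not tested. Near Angptl4, Rab11b did not pass (-0.01, limma adjusted p = 0.966) and Kank3, a gene of endothelial cells, fell (-0.55, limma adjusted p = 0.0334), but missed the threshold when knockouts 3 and 11 were left out (-0.38, limma adjusted p = 0.184) and with median-ratio scaling (-0.49, limma adjusted p = 0.0521). Sox8 and Sstr5, near Lmf1, were listed at 0 in 7 of 8 libraries or more.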

How the data were processed

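Liver RNA libraries (4 knockout, 4 wildtype) were grouped by their titles. Per the labels' protocols, total RNA was Trizol-extracted, DNase-treated and column-purified. The submitters' processing notes name TopHat2 2.1.0, HTSeq, Cufflinks 2.2.1 and the build mm10. The deposited values are FPKM made by the authors, a unit read from the values and the tools named. The annotation and whether counting used strand are not stated. An exact 0 can be a failed estimate.

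Symbols (24807 genes), coordinates, transcript lengths (longest coding transcript) and GC content came from GENCODE M21. For genes with 1 transcript over 1500 bases, the library size at which each FPKM would stand for 1 fragment was worked out. Depth was the commonest such size above a set floor, from 120 to 156 values per library. It assumes that these values are of 1 fragment. FPKM are not counts. The 10250 genes averaging 1 FPKM or more entered limma 3.58.1 (R 4.3.3) as log2(FPKM + 1), in a model of genotype alone with a trended variance. Tests were two-sided, with p adjusted by Benjamini-Hochberg and called at 0.05. This scale understates changes of low genes. The length trend was removed from each library by symmetric loess (span 0.5), keeping its median, for the 10149 genes with a length. Ratios used exact permutation tests, adjusted over 4 ratios, of which 1 is not reported here. On simulated data for knockout against wildtype with 10250 genes, 200 were given a log2 change of 1 and 84.5% of these were recovered. The simulated noise was normal and independent between genes, without a length trend or libraries that stand apart. The change given was larger in size than those of Apoc3 and Lipc, so this share does not give the recovery for the members.

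Members and lists were chosen with earlier results of these data known. Named are the members, Foxo1, the neighbours, up to 4 called genes per list and the 3 nearest profiles each for Angptl8 and Apoc3. Apof, Apon, Alb, S100a8, S100a9, Cd3e, Cd4, Cd8a, Stab1, Fcgr2b, Lep, Retn and Vldlr were named after their values were seen. So were Clec4g, Kdr, Stab2, Lyve1, Igfbp1, G6pc and Cyp4a14. Alternatives were other pseudocounts, filters, scalings, length and GC trends, variance models, library weights, a replicate block and libraries left out. Length from the longest transcript of any type and leaving out genes with a 0 were chosen after seeing the data.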

Additional observations from a re-analysis of the deposited data

Results flagged for a closer look

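In 4 cases 1 library lay far from the rest of its group, by Dixon's test at the 95% level, among 70 groups of 4 examined, where chance alone gives about 1 in 20. Angptl8 was at 312 FPKM in wildtype 3, where wildtypes 1, 10 and 12 held 68.9 to 102 FPKM. Of the neighbouring and listed genes, Apoa1 was at 10918 FPKM in wildtype 10, against 8672 to 8943 FPKM in the others, Rab11b at 26.7 FPKM in knockout 10, against 20.5 to 20.9 FPKM, and Hnf4a at 69.7 FPKM in knockout 10, against 92.1 to 95.8 FPKM.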

How the results depend on the processing

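Angptl8, Apoc3 and Lipc kept their direction under all 23 alternatives, with log2 changes of -3.22 to -1.83, -0.96 to -0.42 and -1.05 to -0.59, against -2.31, -0.73 and -0.90. With each library left out in turn Angptl8 ranged from -2.66 to -1.83 and Apoc3 from -0.81 to -0.64, and both passed each time (limma adjusted p at most 0.0462 and 0.0407). Removal of the length trend ended the call of Apoc3 (-0.42), and leaving out knockouts 3 and 11 that of Angptl8 (-1.93). The genes called numbered 1472, and 964 with the length trend removed, 846 without knockouts 3 and 11, and 703 (without wildtype 1) to 1657 (without knockout 9) with 1 library left out. Without knockout 3, wildtype 10 or wildtype 12 they were 882, 899 and 942. Members called were 2 (without wildtype 1) to 4 (without knockout 10) with 1 library left out.

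Numbers 3 and 10 occur in both groups. Deviations from the group means correlated at -0.00791 for number 3 and 0.0224 for number 10, across genes. Knockout and wildtype libraries of unlike numbers correlated at -0.109 to 0.152. With 4 libraries per group this cannot decide whether shared numbers mark pairs, and the labels do not say. With these numbers as a replicate block, which leaves 1 residual degree of freedom, 2 genes and 0 members were called, and the changes were -3.22 for Angptl8 (limma adjusted p = 0.272), -0.75 for Apoc3 (0.394), -0.85 for Lipc (0.279), -0.28 for Angptl4 and -0.08 for Apoa5.

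Members that did not pass changed sign in places. Apoc2 was at 0.08 with quantile normalization, 0.07 with the length trend removed and 0.05 with length from any transcript. Apoa5 was at -0.10 without knockouts 3 and 11 and at -0.07 to 0.10 with 1 library left out, and Angptl4 at -0.13 to 0.34. The exact permutation tests of ratios kept their direction in all 9 alternatives, but with 1 library left out their adjusted p was 0.0286 to 0.0571, and 2 knockouts against 4 wildtypes cannot go below 0.0667. At the estimated depth Lpl and Gpihbp1 rest on 150 to 1279 and 189 to 298 fragments per library, which limits small differences.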

Other observations

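Vldlr, the gene of a receptor that binds triglyceride-rich particles, averaged under 1 FPKM overall and so was not tested above. It was at 0.0714, 0.306, 0.143 and 0.163 FPKM across knockout libraries 3, 9, 10 and 11, against 2.20, 0.553, 0.645 and 0.977 FPKM in wildtype libraries 1, 3, 10 and 12, with no overlap. With no filter on low values, over 19052 genes, its log2 change was -0.78 (SE 0.22) and did not pass (limma adjusted p = 0.0800).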
